A study of Mus musculus with 10 samples.

Results

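The RNA of 10 genes that encode fibrillins, proteoglycans and matricellular proteins of the extracellular matrix was followed in mouse liver and in 2 kinds of mouse liver tumour. The genes are Prg4, Fbn1, Fbn2, Dcn, Lum, Bgn, Fn1, Sparc, Postn and Vcan, and all 10 were present among the 16697 gene entries of the expression table. They were chosen by family and with earlier results of these libraries known, and Prg4 and Fbn2 had been selected on the size of their differences between the groups. The values of those 2 genes are therefore given as a description without a p-value, and 7 of the other 8 were tested in a model fitted to the whole table, Vcan being too low for it.

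RNA sequencing was available for 4 normal livers (NL), 3 tumours induced by c-MYC and 3 tumours induced by c-MYC with FOXO1AAA. FOXO1AAA is a MYC-tagged form of the transcription factor FOXO1 that AKT cannot inactivate, and it was expressed from the pT3-EF1α plasmid, which the c-MYC tumours received empty. The paper's list of injected plasmids names no MCL1 for either tumour group, and its methods call the controls c-MYC/pT3. A figure legend of the paper nevertheless adds MCL1 to the control injection. By the plasmid list, the injections differed in FOXO1AAA against the empty plasmid. Plasmids were delivered by hydrodynamic tail vein injection, which brings them into hepatocytes, and tumours were harvested when the mice were moribund. All samples were labelled as wild type. The labels name C57BL/6 mice and the methods FVB/N mice for all groups. RNA came from whole tissue, so each value is a mixture of the tumour or liver cells with the stroma and vessels around them. By the methods, the numbers of mice equal the numbers of libraries, 4 for NL and 3 for each tumour group. How many tumours of a mouse went into a library is not given in the sources used here, and p-values measure the spread between these samples.

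Levels are given as FPKM, which are fragments scaled to gene length and library size. The libraries held between 13.1 and 20.6 M (mega) reads in listed genes. The size scaling applied by the authors differed between the groups, with factors from 0.649 to 0.684 in NL, 1.26 to 1.30 in c-MYC and 1.454 to 1.502 in c-MYC/FOXO1AAA. Foxo1 itself lay between 70.1 and 95.6 FPKM in the c-MYC/FOXO1AAA libraries, and its highest value in the other libraries was 7.87 FPKM. The Myc row was lower in both tumour groups, at 0.561 to 1.05 FPKM in c-MYC and 0.876 to 1.11 in c-MYC/FOXO1AAA, than in NL, at 4.17 to 22.2 FPKM. It is not given in the sources used here if transgene reads count towards that row, so it does not check the c-MYC label. The summed level of 8 hepatocyte markers, albumin among them, was 81836 to 91362 FPKM in NL, 3256 to 5081 in c-MYC and 870 to 1555 in c-MYC/FOXO1AAA. That sum joins markers that differed between the tumour groups. In c-MYC/FOXO1AAA against c-MYC, 3 were called higher (Pck1, Cyp2e1 and Tat), beside 15.9% of all tested genes. Another 4 were called lower (Hnf4a, Ttr, Cps1 and Apoa1), beside 12.7%. The albumin gene Alb was not called, and its values in the tumour groups overlapped.

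The extracellular matrix is a network of secreted proteins to which cells attach. Fibrillins assemble into microfibrils, the scaffolds of elastic fibres, which also hold latent TGF-β in the matrix. Small leucine-rich proteoglycans such as decorin, lumican and biglycan bind collagen and set the spacing of its fibrils. Matricellular proteins, among them osteonectin and periostin, modify how cells respond to the matrix more than they bear load. In liver, stellate cells and fibroblasts make most of these proteins, whereas hepatocytes release plasma fibronectin into the blood.

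The composition of these transcripts differed among the 3 groups. The summed level of the 10 genes was 481 FPKM ± 34.7 (SD, n = 4) across NL, 165 FPKM ± 29.4 (SD, n = 3) across c-MYC and 610 FPKM ± 29.0 (SD, n = 3) across c-MYC/FOXO1AAA. Fn1 made up a mean of 54.3% of that sum in NL, 35.9% in c-MYC and 5.42% in c-MYC/FOXO1AAA. Dcn contributed 14.5%, 2.63% and 38.5% in the same order. Sparc was the main part in c-MYC, at 52.6%. Fibrillin and lubricin transcripts, which were minor in NL, contributed in c-MYC/FOXO1AAA, where Prg4 held 20.7% and Fbn2 6.76% of the sum.

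The order of the genes by level changed accordingly. In NL, Fn1 stood above all others, followed by Dcn, Sparc and Bgn, whose ranges overlapped as neighbours, and then by Prg4, Lum, Postn and Fbn1 without overlap. In c-MYC, Sparc and Fn1 led with overlapping ranges, and below them the ranges of Bgn and Dcn, of Dcn and Postn, of Fbn1 and Lum and of Lum and Prg4 overlapped. In c-MYC/FOXO1AAA, Dcn led without overlap with Prg4, the next gene. Prg4 and Sparc overlapped, as did Fbn2 with Bgn, Bgn with Fn1, Fbn1 with Lum and Lum with Postn. Vcan was last in c-MYC/FOXO1AAA, and Vcan and Fbn2 were at the bottom of both other groups.

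**Figure D1:**
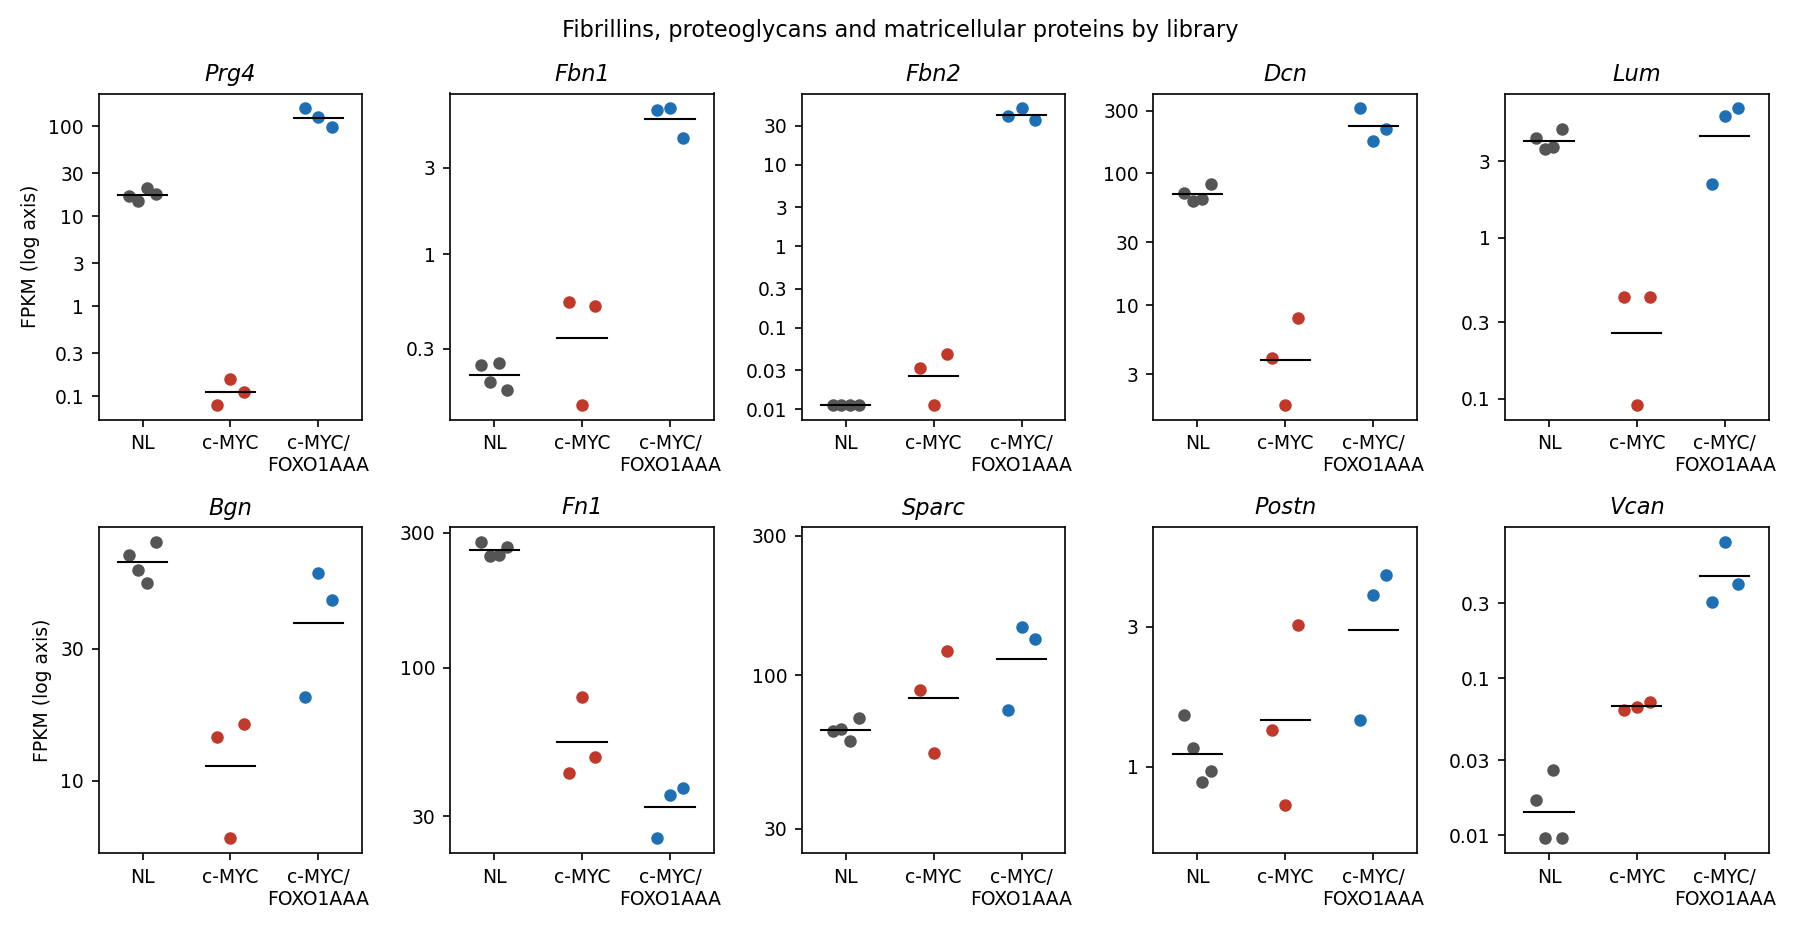
Level of each gene in FPKM on a log axis (vertical) in the 4 NL, 3 c-MYC and 3 c-MYC/FOXO1AAA libraries (horizontal), with a point per library and a line at the mean of the log2 values. Prg4, Dcn and Lum are lowest in c-MYC, Fbn1 and Fbn2 stand apart only in c-MYC/FOXO1AAA, and Fn1 is highest in NL.

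Prg4 encodes lubricin, a mucin-like proteoglycan that lubricates joint surfaces and is also made in liver (chromosome 1, 150449412 to 150466165). It stood at 16.9, 14.8, 20.4 and 17.5 FPKM in the NL libraries. The c-MYC libraries held 0.0807, 0.155 and 0.112 FPKM, which rest on 3, 8 and 5 reads. In c-MYC/FOXO1AAA it was at 157, 125 and 97.8 FPKM. The ranges of the 3 groups lay apart, with c-MYC lowest and c-MYC/FOXO1AAA highest. By pooled reads and library sizes, the level in c-MYC was 0.00474 times that in NL (95% counting interval 0.00271 to 0.00772). The level in c-MYC/FOXO1AAA was 7.40 times that in NL (7.10 to 7.72) and 1560 times that in c-MYC (960 to 2729). These intervals cover counting error only, not the spread between tumours. By rank of mean log2 FPKM, Prg4 was at position 4495 of 16697 entries in NL, 15430 in c-MYC and 614 in c-MYC/FOXO1AAA.

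Fbn2 encodes fibrillin-2, the fibrillin that predominates in the embryo (chromosome 18, 58008623 to 58210487). No read was recovered in any of the 4 NL libraries, and the deposited value there is the floor of 0.0113 FPKM that the authors' prior count gives a gene of this length. The c-MYC libraries held 4, 0 and 7 reads. In c-MYC/FOXO1AAA the values were 39.3, 49.2 and 35.1 FPKM, from 7209 to 15390 reads per library. Against 3 reads per library in NL, the level in c-MYC/FOXO1AAA was at least 1402-fold higher. The ratio of pooled reads to c-MYC was 2232 (95% counting interval 1247 to 4472). In order of the fitted difference from c-MYC, Fbn2 was at position 5 and Prg4 at position 10 of 14017 genes, which describes how they were selected.

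Fbn1 encodes fibrillin-1, the main microfibril protein of adult tissue (chromosome 2, 125300594 to 125507993). Its values were 0.244, 0.196, 0.249 and 0.177 FPKM in NL and 0.542, 0.147 and 0.519 FPKM in c-MYC. They were 6.25, 6.41 and 4.41 FPKM in c-MYC/FOXO1AAA. All 3 c-MYC/FOXO1AAA libraries were above all others, and NL and c-MYC overlapped. The mean of c-MYC/FOXO1AAA was higher by 4.02 log2 units than that of c-MYC (SE 0.47) and by 4.71 than that of NL (SE 0.44). Fbn1 reached 1 FPKM only in that group and passed the filter on low genes through it, as Fbn2 did, so no p-value of the filtered fit is given for these differences. In the fit without a filter, the limma adjusted p was 8.33e-05 and 4.45e-06. Between c-MYC and NL the difference was 0.69 (95% interval -0.28 to 1.66, limma adjusted p 0.632). Without c-MYC replicate 2, the lowest of its group, it was 1.31 and past the threshold (limma adjusted p 0.0378), as it was after rescaling each library to the same FPKM total (1.62, limma adjusted p 0.0284).

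Both fibrillins were highest in c-MYC/FOXO1AAA, at different levels. In c-MYC/FOXO1AAA, Fbn2 had a mean of 41.2 FPKM ± 7.23 (SD, n = 3) and Fbn1 a mean of 5.69 FPKM ± 1.11 (SD, n = 3), whose ranges did not overlap. In NL the order was the opposite, with 0.217 FPKM ± 0.0356 (SD, n = 4) for Fbn1 and no read for Fbn2.

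Dcn encodes decorin, which binds collagen fibrils and TGF-β (chromosome 10, 97479609 to 97518143). In NL it was at 70.5, 62.0, 63.7 and 83.1 FPKM. It was at 4.00, 1.76 and 7.99 FPKM in c-MYC and at 312, 178 and 218 FPKM in c-MYC/FOXO1AAA. The 3 groups did not overlap. Dcn fell by 4.18 log2 units in c-MYC against NL (SE 0.41, limma adjusted p 1.79e-05) and rose by 5.90 in c-MYC/FOXO1AAA against c-MYC (SE 0.44, limma adjusted p 3.89e-06). The rise over NL was 1.73 (SE 0.41, limma adjusted p 0.0184). That last difference was 1.504 without c-MYC/FOXO1AAA replicate 1, the highest library, and then missed the threshold (limma adjusted p 0.0792). Dcn held position 303 of 16697 entries by mean log2 FPKM in c-MYC/FOXO1AAA, 1776 in NL and 8851 in c-MYC. In whole tissue, fewer cells of a type and less RNA per cell cannot be told apart.

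Lum encodes lumican, which binds collagen near decorin and lies on the same chromosome (chromosome 10, 97565128 to 97572703). Its values were 4.15, 3.56, 3.69 and 4.74 FPKM in NL. In c-MYC they were 0.427, 0.0917 and 0.426 FPKM, which rest on 2 to 17 reads per library. In c-MYC/FOXO1AAA they were 2.17, 5.74 and 6.38 FPKM. The c-MYC libraries were below all others, and the c-MYC/FOXO1AAA range enclosed the NL range. Lum fell by 3.97 log2 units in c-MYC against NL (SE 0.55, limma adjusted p 0.000198) and rose by 4.07 in c-MYC/FOXO1AAA against c-MYC (SE 0.59, limma adjusted p 0.000465). Against NL the difference of c-MYC/FOXO1AAA was 0.10 with an interval of -1.11 to 1.32 (limma adjusted p 1), and its sign turned under several other settings.

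Bgn encodes biglycan, a further small leucine-rich proteoglycan, which can also signal through Toll-like receptors (chromosome X, 73483602 to 73495933). In NL it was at 65.9, 58.2, 51.9 and 73.3 FPKM. The c-MYC libraries held 14.4, 6.18 and 16.1 FPKM, and the c-MYC/FOXO1AAA libraries 20.2, 56.6 and 45.2 FPKM. The c-MYC libraries were again the lowest, and c-MYC/FOXO1AAA overlapped NL. Bgn fell by 2.45 log2 units in c-MYC against NL (SE 0.39, limma adjusted p 0.0011). It rose by 1.72 in c-MYC/FOXO1AAA against c-MYC (SE 0.41, limma adjusted p 0.0376), but this call rested on single libraries. The difference was 1.29 without c-MYC replicate 2 (limma adjusted p 0.14), 1.42 without c-MYC/FOXO1AAA replicate 2 (limma adjusted p 0.158) and 1.58 without c-MYC/FOXO1AAA replicate 3 (limma adjusted p 0.122). Against NL the difference was -0.73 (95% interval -1.59 to 0.13, limma adjusted p 0.507).

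The promoters of Fbn1, Bgn and Postn are shown because the former 2 genes had higher means in c-MYC/FOXO1AAA against c-MYC, whereas Postn, described further on, was not called. Each line gives the 250 bases before the annotated start, 5′ to 3′ on the strand of the gene, from RefSeq for GRCm38.p6. The Fbn1 window is chr2:125506439-125506688 on the minus strand, which lies inside the gene as GENCODE draws it. The Bgn window is chrX:73483351-73483600 and the Postn window, at the second of its listed starts, chr3:54360857-54361106, both on the plus strand. Capitals mark a GC box (GGGCGG or its reverse complement CCGCCC) or a TATA box (TATAAA or TTTATA).
Fbn1: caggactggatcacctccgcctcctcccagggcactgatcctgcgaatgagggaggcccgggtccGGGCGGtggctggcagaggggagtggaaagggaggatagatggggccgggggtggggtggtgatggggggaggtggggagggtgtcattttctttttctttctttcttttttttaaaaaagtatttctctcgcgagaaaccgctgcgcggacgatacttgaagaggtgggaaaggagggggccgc
Bgn: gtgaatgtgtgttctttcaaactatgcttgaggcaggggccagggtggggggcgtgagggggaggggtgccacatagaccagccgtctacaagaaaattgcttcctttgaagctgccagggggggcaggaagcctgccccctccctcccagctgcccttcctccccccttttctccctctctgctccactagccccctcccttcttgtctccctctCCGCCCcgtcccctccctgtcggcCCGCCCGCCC
Postn: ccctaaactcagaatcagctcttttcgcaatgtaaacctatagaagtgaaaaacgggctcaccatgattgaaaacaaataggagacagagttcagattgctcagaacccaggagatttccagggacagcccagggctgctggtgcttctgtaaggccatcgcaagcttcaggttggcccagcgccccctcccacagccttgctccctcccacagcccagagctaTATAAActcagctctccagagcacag

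The Fbn1 window held 1 GC box and the Bgn window 3, of which the last 2 overlap, and neither held a TATA box. The Postn window held 1 TATA box, 26 bases before the start, and no GC box. The window at the first listed Postn start, not shown, held neither. Over all 32851 promoter windows of the table, which add the 50 bases after the start, a GC box occurred in 35.7% and a TATA box in 13.6%. Promoter windows were listed for 5 of the 10 genes, the others being Sparc and Vcan. Motifs bound by FOXO and MYC factors were also searched on both strands of these windows, namely the FOXO site GTAAACA, found in 3.65% of all windows, the insulin response element CAAAACA (6.28%) and the E-box CACGTG, which is its own reverse complement (7.15%). None of these was in a window of the 5 genes. A match or its lack is a description of these letters only.

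Fn1 encodes fibronectin, the adhesive protein that circulates in plasma and is laid down in wounds (chromosome 1, 71585520 to 71653200). It was at 279, 248, 249 and 268 FPKM in NL. It was at 42.6, 79.1 and 48.3 FPKM in c-MYC and at 25.0, 35.7 and 37.6 FPKM in c-MYC/FOXO1AAA. NL was above all tumours, and the tumour groups did not overlap. Fn1 fell by 2.26 log2 units in c-MYC against NL (SE 0.21, limma adjusted p 2.31e-05) and by 3.01 in c-MYC/FOXO1AAA against NL (SE 0.21, limma adjusted p 8.66e-07). Between the tumour groups the difference was -0.76 (95% interval -1.25 to -0.27), which did not pass the test for a change above 1.5-fold (limma adjusted p 0.533). Without the fold threshold the same difference had a limma adjusted p of 0.0127.

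Sparc encodes osteonectin, a collagen-binding matricellular protein (chromosome 11, 55394500 to 55423183). Its values were 64.8, 65.5, 59.8 and 71.3 FPKM in NL and 89.4, 54.4 and 121 FPKM in c-MYC. They were 76.2, 146 and 133 FPKM in c-MYC/FOXO1AAA. The c-MYC range enclosed the NL range, and all 3 c-MYC/FOXO1AAA libraries were above NL. No comparison passed the test: the log2 difference was 0.36 for c-MYC against NL (95% interval -0.25 to 0.97), 0.44 between the tumour groups (-0.21 to 1.09) and 0.81 for c-MYC/FOXO1AAA against NL (0.20 to 1.42). The limma adjusted p values were 1, 1 and 0.325. Both calls against NL depended on the scaling. Rescaling each library to the same FPKM total gave 1.29 for c-MYC (limma adjusted p 0.0175) and 1.90 for c-MYC/FOXO1AAA (limma adjusted p 0.000391), and quantile normalization gave 1.46 for the latter (limma adjusted p 0.0151). Without the fold threshold the difference of 0.81 had a limma adjusted p of 0.0191.

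Postn encodes periostin, a matricellular protein of fibrotic and wounded tissue (chromosome 3, 54361109 to 54391037). It was low throughout, at 1.502, 1.16, 0.888 and 0.962 FPKM in NL, 1.33, 0.740 and 3.04 FPKM in c-MYC and 1.44, 3.86 and 4.49 FPKM in c-MYC/FOXO1AAA. Every pair of groups overlapped. The log2 difference was 0.38 for c-MYC against NL (95% interval -0.73 to 1.498, limma adjusted p 0.948) and 1.02 between the tumour groups (-0.17 to 2.21, limma adjusted p 0.535). For c-MYC/FOXO1AAA against NL it was 1.41 (0.29 to 2.52, limma adjusted p 0.11), and 1.92 without c-MYC/FOXO1AAA replicate 1 (limma adjusted p 0.0223). It was also past the threshold after rescaling to the same FPKM total (2.503, limma adjusted p 0.00184) and without the fold threshold (limma adjusted p 0.0237).

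Vcan encodes versican, a large chondroitin sulfate proteoglycan that binds hyaluronan (chromosome 13, 89655312 to 89742509). It did not reach 1 FPKM in any library and was therefore not tested. The NL libraries held 1, 0, 2 and 0 reads, and the c-MYC libraries 12 to 14 reads. In c-MYC/FOXO1AAA the libraries held 91, 270 and 94 reads, or 0.307, 0.737 and 0.395 FPKM. The 3 groups did not overlap. By pooled reads, c-MYC/FOXO1AAA was at 8.75 times the level of c-MYC (95% counting interval 6.30 to 12.5) and c-MYC at 9.18 times that of NL (2.92 to 46.4).

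**Figure D2:**
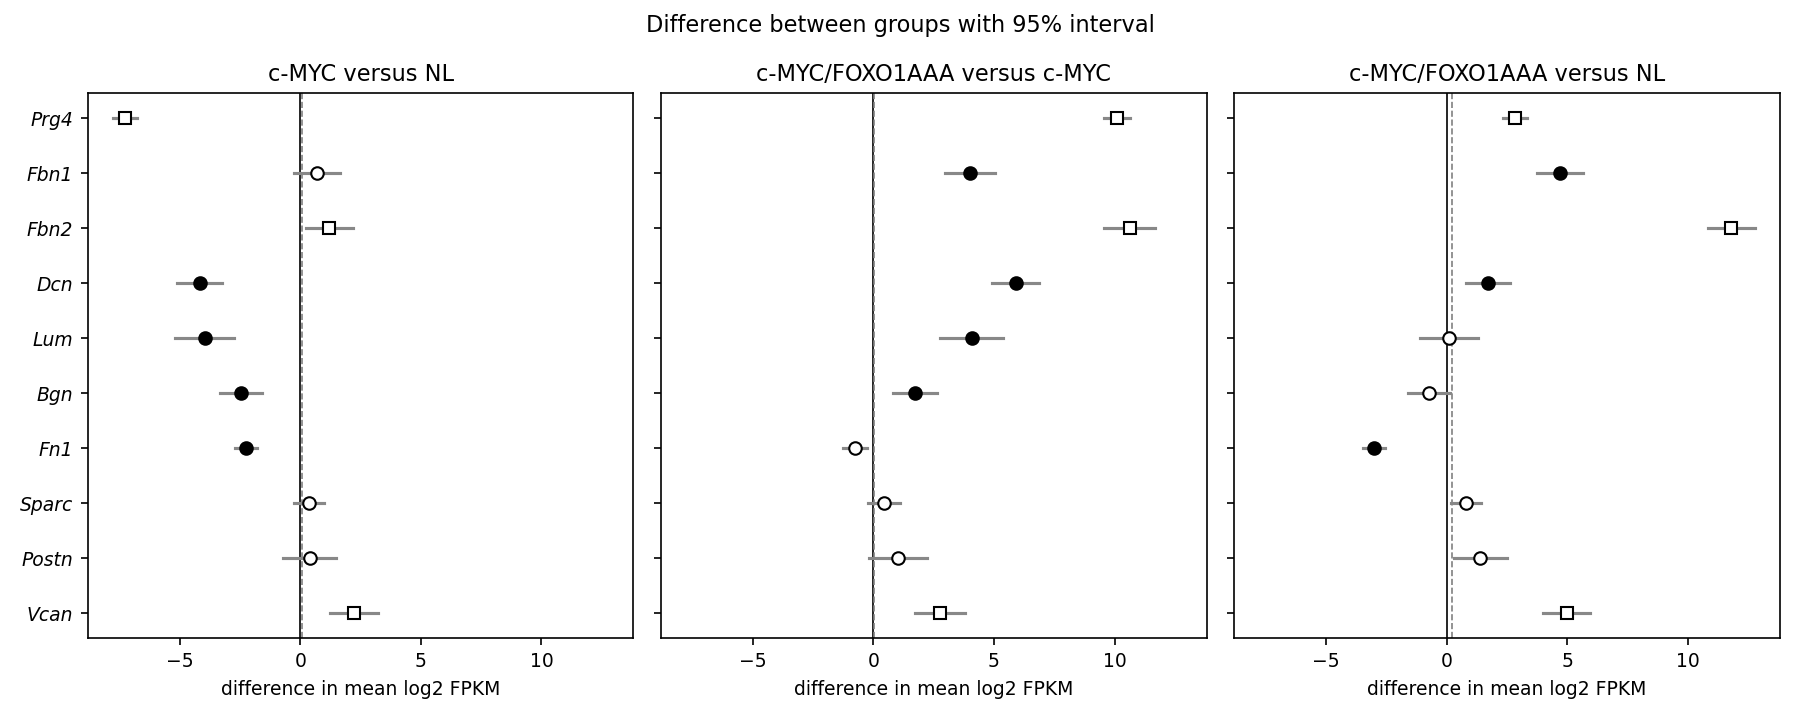
Difference in mean log2 FPKM (horizontal) for each gene in the 3 comparisons, with its 95% interval. Filled circles passed limma treat, open circles did not, and squares were not tested (Prg4 and Fbn2 as selected genes, and Vcan, whose interval comes from the fit without a filter). Fbn1 passed the filter only through c-MYC/FOXO1AAA. The dashed line is the median over all tested genes. Dcn, Lum and Bgn lie left of 0 in c-MYC versus NL and right of it between the tumour groups, and Fn1 lies left of 0 in all 3.

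Counted over the 8 genes other than Prg4 and Fbn2, of which Vcan did not pass the filter, 4 fell from NL to c-MYC. These were Dcn, Lum, Bgn and Fn1. None was called higher by limma, also at an unadjusted p under 0.05. Of all 14017 tested genes 23.6% were called lower and 24.5% higher. In c-MYC/FOXO1AAA against c-MYC, 3 rose, namely Dcn, Lum and Bgn, or 4 with Fbn1, beside 15.9% of all genes, and 0 fell, beside 12.7% (0 also at an unadjusted p under 0.05). Against NL, 1 rose in c-MYC/FOXO1AAA (Dcn), or 2 with Fbn1, beside 31.2% of all genes, and 1 fell (Fn1), beside 26.6%. Nothing is read from the calls of Fbn1, which passed the filter only through c-MYC/FOXO1AAA. Over the 12929 tested genes with 1 FPKM in at least 3 NL or c-MYC libraries, to which the other 6 tested members belong, 11.0% rose and 13.8% fell against c-MYC, and 26.7% rose and 28.8% fell against NL. The 3 comparisons share libraries and are not independent of each other. The median log2 difference of all tested genes was 0.08, 0.03 and 0.21 in the same order. Under rescaling to the same FPKM total these medians were 1.011, 0.20 and 1.31, and 7061 genes were then called higher and 1895 lower in c-MYC against NL, in place of 3435 and 3305. For c-MYC/FOXO1AAA against NL the split was 8129 and 2099 in place of 4371 and 3728. Dcn, Lum, Bgn and Fn1 stayed below NL in c-MYC, and past the threshold, under that rescaling too.

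Counted by groups that do not overlap over all 10 genes, 5 were lower and 1 higher in c-MYC than in NL, beside 32.7% and 35.9% of all listed genes. In c-MYC/FOXO1AAA, 7 were higher and 1 lower than in c-MYC, beside 33.5% and 28.2%, and 6 were higher and 1 lower than in NL, beside 43.1% and 33.2%. These counts include Prg4 and Fbn2, which were selected on such differences, and nothing is read from them.

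The genes also varied among the tumours of a group, and not all in the same libraries. In c-MYC, replicate 2 was the lowest library for 7 of the 10 genes, namely Fbn1, Fbn2, Dcn, Lum, Bgn, Sparc and Postn. The same library was the highest for Fn1 and Prg4, the latter with 8 reads against 3 and 5, so that its order among these libraries is not read. Dcn spanned 4.55-fold and Lum, on 2 to 17 reads, 4.65-fold between the lowest and the highest c-MYC library, and Fn1 1.86-fold. In c-MYC/FOXO1AAA, replicate 1 was the lowest for Lum, Bgn, Fn1, Sparc, Postn and Vcan and the highest for Prg4 and Dcn. In NL the spans were small, with 1.12-fold for Fn1 and 1.34-fold for Dcn.

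Markers of stellate cells and fibroblasts, the collagen-producing cells of the liver, also differed between the groups, but not always as the genes above did. Of 16 listed markers 15 were measured, and their summed level was 53.1 to 63.2 FPKM in NL, 17.9 to 54.0 FPKM in c-MYC and 215 to 330 FPKM in c-MYC/FOXO1AAA. The sums of NL and c-MYC overlapped. The lowest sum in c-MYC was that of replicate 2 and the lowest in c-MYC/FOXO1AAA that of replicate 1, the libraries in which most of the genes above were lowest. Against NL, 10 of the 15 markers fell in c-MYC, beside 23.6% of all tested genes, and 1, Col1a1, rose, beside 24.5%. In c-MYC/FOXO1AAA against c-MYC, 9 rose and 0 fell, beside 15.9% and 12.7%. Against NL 7 rose (Acta2, Des, Col1a1, Col3a1, Pdgfrb, Col1a2 and Cygb), beside 31.2%, and 5 fell (Lrat, Hand2, Tcf21, Rgs5 and Ngfr), beside 26.6%. The markers did not move as a block. Lrat and Hand2, which mark quiescent stellate cells, stayed under 1 FPKM in all tumours. Reln, which fell in c-MYC, was at 4.1 to 8.3 FPKM in c-MYC/FOXO1AAA and 4.5 to 5.4 FPKM in NL. Des reached 57.4 to 69.3 FPKM and Acta2 41.6 to 91.2 FPKM in c-MYC/FOXO1AAA, so that Des and Acta2 made up a large part of the sum there. No marker of this list was under 1 FPKM throughout NL. The part of these cells in the results was not tested.

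Other cell types showed other patterns. The 6 mesothelial markers summed to 3.12 to 8.12 FPKM in NL, 0.575 to 0.946 in c-MYC, where each was under 1 FPKM, and 5.11 to 10.3 in c-MYC/FOXO1AAA. The 7 measured cartilage markers summed to 6.83 to 8.72, 1.30 to 2.22 and 10.1 to 13.6 FPKM in the 3 groups. Sox6 was the largest part of each sum, at 4.42 to 5.62, 0.927 to 1.59 and 5.13 to 9.02 FPKM. Sox5 was called lower than in NL in both tumour groups, and Col9a1, Cilp and Cilp2 stayed under 1 FPKM in all libraries. Col11a2 was at 1.34 to 2.70 FPKM in c-MYC/FOXO1AAA and under 1 FPKM elsewhere. The cartilage collagen Col2a1 was at its floor in all NL and c-MYC libraries and at 1.45 to 2.37 FPKM in c-MYC/FOXO1AAA. Endothelial markers summed to 52.2 to 67.8 FPKM in NL, 11.8 to 19.3 in c-MYC and 29.5 to 43.6 in c-MYC/FOXO1AAA, with Clec4g and Stab2 under 1 FPKM in all tumours. Most of the sum in c-MYC/FOXO1AAA was Cdh5, at 18.1 to 35.8 FPKM, against 3.2 to 6.1 in c-MYC and 3.8 to 5.3 in NL. Of 7 tested endothelial markers, Cdh5 alone was called higher there than in c-MYC, beside 15.9% of all genes, and than in NL, beside 31.2%. Against NL, 4 were called lower there, beside 26.6%. Macrophage markers summed to 177 to 309, 50.5 to 61.6 and 41.4 to 67.6 FPKM, and the 4 measured biliary markers to 2.36 to 4.63, 15.4 to 30.8 and 4.72 to 11.9 FPKM. These sums join markers that differed: Clec4f was called lower and Cd68 higher than in NL in both tumour groups. Epcam and Krt7 were called higher in c-MYC than in NL, whereas Krt19 was not called and Sox9 was under 1 FPKM in all libraries. The part of these cells was not tested either.

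**Figure D3:**
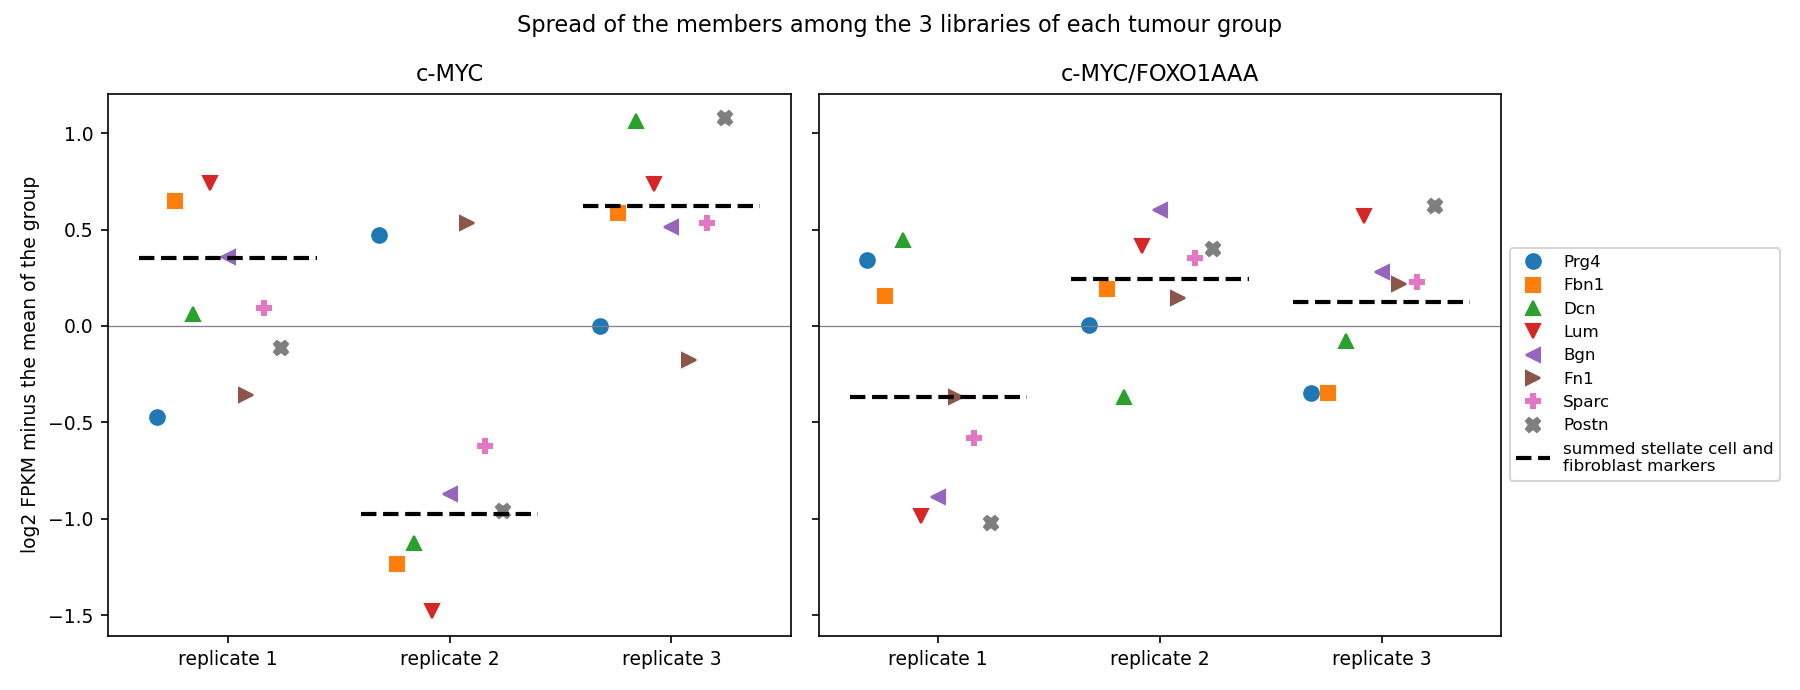
Deviation of each gene from the mean log2 FPKM of its group (vertical) in the 3 libraries of c-MYC and of c-MYC/FOXO1AAA (horizontal), with the summed stellate cell and fibroblast markers as a dashed line. Fbn2 and Vcan are left out for their few reads. Prg4 and Lum are shown but also had few reads in c-MYC, with 3 to 8 and 2 to 17 per library, so their places there carry large counting error. In c-MYC replicate 2, Fbn1, Dcn, Lum, Bgn, Sparc and Postn lie below 0 with the markers, and Fn1 and Prg4 above it.

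The genes whose log2 FPKM followed each member most closely were listed by Pearson's r over the 10 libraries, as a description, since the libraries fall into 3 groups. For Fn1 they were Masp1 (r = 0.9994) and Ahsg (r = 0.9985), both of which encode plasma proteins made by hepatocytes. Ahsg had a mean of 7665 FPKM in NL, 660 in c-MYC and 301 in c-MYC/FOXO1AAA. Sparc was followed by collagen genes, Col6a2 (r = 0.9608) and Col1a2 (r = 0.9304), and Postn by Col6a1 (r = 0.9154) and Col5a1 (r = 0.9120). The genes closest to Fbn2 were Tnnt3, a troponin of fast skeletal muscle (r = 0.9995), and Adcy2, an adenylate cyclase (r = 0.9962). Tnnt3 had a mean of 0.346 FPKM in NL, 0.612 in c-MYC and 160 in c-MYC/FOXO1AAA.

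For Fbn1 the closest genes were Slc35e4 (r = 0.9940) and S100a6, a calcium-binding protein gene (r = 0.9927). For Dcn they were Tgif1, a transcriptional repressor (r = 0.9949), and Msrb3, a methionine sulfoxide reductase (r = 0.9939). Efna5, which encodes an ephrin ligand, followed Prg4 (r = 0.9924). Lum was followed by Ccdc3 (r = 0.9770) and Supt4a (r = 0.9760), Bgn by BC029722 (r = 0.9808) and Islr (r = 0.9759), and Vcan by Derl3 (r = 0.9932) and Zfp346 (r = 0.9867). No gene was named for more than 1 member.

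The other genes of the same matrix systems were examined in 8 lists with 157 genes, of which 128 were in the table and 100 passed the filter. From NL to c-MYC, 17 of the 100 rose and 34 fell. In c-MYC/FOXO1AAA against c-MYC, 55 rose and 7 fell, and against NL 50 rose and 20 fell. These counts, and those of each single list below, stand beside the percentages of all genes given above. Of the 100, 30 reached 1 FPKM in at least 3 libraries only with those of c-MYC/FOXO1AAA and so had to be high there, and nothing is read from their calls for that group. Among the other 70, 26 rose and 7 fell against c-MYC, and 22 rose and 20 fell against NL. Of the genes named below, Thsd4, Lox, Ogn, Aspn, Spock2, Thbs1, Gpc1, Gpc6, Cd44, Itgb3, Mmp2 and Timp1 are among the 30, and their p-values for c-MYC/FOXO1AAA come from the fit without a filter. Each was named for the largest change in its list, so these p-values follow that selection and are no independent support.

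**Figure D4:**
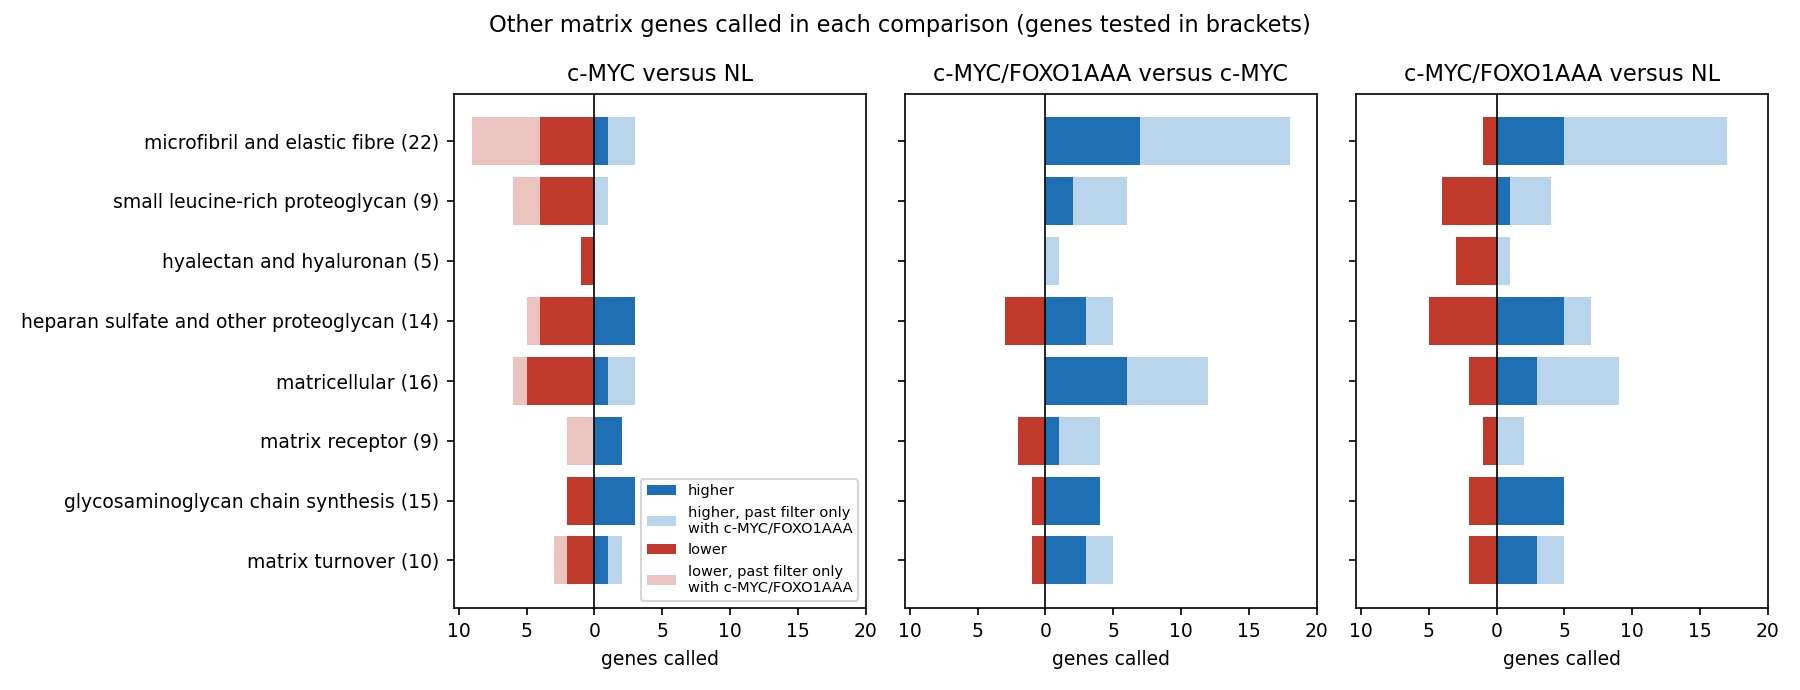
Number of genes called higher (right of 0) or lower (left of 0) by limma treat in each of the 8 lists, for the 3 comparisons. The number of genes tested is given in brackets, and pale bars are genes that passed the filter only with the c-MYC/FOXO1AAA libraries. The microfibril and elastic fibre list has 18 genes higher in c-MYC/FOXO1AAA versus c-MYC, 11 of them pale, and 0 lower.

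Genes of microfibrils and elastic fibres, the partners of the fibrillins, included 22 tested genes. In c-MYC against NL, 3 rose and 9 fell, with a median log2 difference of -0.98. In c-MYC/FOXO1AAA against c-MYC, 18 rose and 0 fell (0 also at an unadjusted p under 0.05 in limma), and against NL 17 rose and 1 fell. With a library left out, 13 to 18 rose against c-MYC and 10 to 17 against NL. Leaving out a c-MYC/FOXO1AAA library also lets fewer genes pass the filter. At a mean of at least 5 FPKM, where fewer genes were tested, 4 rose against c-MYC. Among the 10 genes that did not need the c-MYC/FOXO1AAA libraries to pass the filter, 7 rose against c-MYC, with a median of 2.38, and 5 against NL. Thsd4, whose product binds fibrillin-1 and promotes microfibril assembly, rose from 0.0433 FPKM ± 0.00638 (SD, n = 3), or at most 2 reads per library, in c-MYC to 10.1 FPKM ± 2.16 (SD, n = 3) across c-MYC/FOXO1AAA (limma adjusted p 9.77e-08). Lox, the lysyl oxidase that crosslinks collagen and elastin, rose from 0.0807 FPKM ± 0.0683 (SD, n = 4) across NL to 1.06 FPKM ± 0.0853 (SD, n = 3) across c-MYC (limma adjusted p 0.000239). It was at 21.0 FPKM ± 3.13 (SD, n = 3) across c-MYC/FOXO1AAA, higher than in NL (limma adjusted p 3.06e-07). Efemp1, which encodes fibulin-3, fell by 4.57 log2 units in c-MYC against NL (limma adjusted p 1.35e-05) and by 2.07 in c-MYC/FOXO1AAA against NL (limma adjusted p 0.00814).

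Among the other small leucine-rich proteoglycans 9 genes were tested. In c-MYC against NL, 1 rose and 6 fell, with a median of -2.86, and in c-MYC/FOXO1AAA against c-MYC 6 rose and 0 fell (0 also at an unadjusted p under 0.05 in limma). Against NL, 4 rose and 4 fell. Among the 5 genes that passed the filter without those libraries, 2 rose against c-MYC, with a median of 0.39, and 1 rose against NL. Without a library of c-MYC/FOXO1AAA, the number that rose was 2 or 3 against c-MYC and 1 against NL, with fewer genes past the filter. Ogn, which encodes osteoglycin, rose from 0.117 FPKM ± 0.0883 (SD, n = 3) across c-MYC to 10.4 FPKM ± 2.88 (SD, n = 3) across c-MYC/FOXO1AAA (limma adjusted p 2.9e-06). Omd, the osteomodulin gene, fell by 4.03 log2 units in c-MYC against NL (limma adjusted p 1.95e-06). Aspn, which encodes asporin, had at most 1 read per NL library and stood at 2.57 FPKM ± 1.62 (SD, n = 3) across c-MYC/FOXO1AAA (limma adjusted p 1.26e-05). Tsku, which encodes the liver-secreted protein tsukushi, fell from 57.5 FPKM ± 7.98 (SD, n = 4) across NL to 3.97 FPKM ± 1.22 (SD, n = 3) across c-MYC/FOXO1AAA (limma adjusted p 1.26e-07).

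The list of matricellular genes beside Sparc and Postn had 16 tested members. In c-MYC against NL, 3 rose and 6 fell, with a median of -0.39. In c-MYC/FOXO1AAA against c-MYC, 12 rose and 0 fell (0 also at an unadjusted p under 0.05 in limma), and against NL 9 rose and 2 fell. Among the 10 genes that passed the filter without the c-MYC/FOXO1AAA libraries, 6 rose against c-MYC, with a median of 2.12, and 3 rose against NL. The 12 became 5 without c-MYC/FOXO1AAA replicate 2 or 3, and the 9 became 5 without any 1 of the c-MYC/FOXO1AAA libraries, which also lets fewer genes pass the filter. Spock2, a testican proteoglycan, rose from at most 3 reads per c-MYC library to 65.5 FPKM ± 10.5 (SD, n = 3) across c-MYC/FOXO1AAA (limma adjusted p 1.96e-07). Thbs1, which encodes thrombospondin-1, rose from 0.0841 FPKM ± 0.0233 (SD, n = 4) across NL to 25.4 FPKM ± 3.91 (SD, n = 3) across c-MYC/FOXO1AAA (limma adjusted p 1.17e-08). Ecm1 fell from 78.7 FPKM ± 5.14 (SD, n = 4) across NL to 2.54 FPKM ± 1.498 (SD, n = 3) across c-MYC (limma adjusted p 8.67e-07). It was at 5.57 FPKM ± 1.39 (SD, n = 3) across c-MYC/FOXO1AAA, below NL (limma adjusted p 6.07e-06). Sparcl1, a relative of Sparc, rose by 2.37 log2 units in c-MYC against NL (limma adjusted p 0.0133).

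Heparan sulfate and other proteoglycans did not share a direction. Of 14 tested genes, 3 rose and 5 fell in c-MYC against NL, 5 rose and 3 fell in c-MYC/FOXO1AAA against c-MYC, and 7 rose and 5 fell against NL. Without the 2 genes that passed the filter only with c-MYC/FOXO1AAA, Gpc1 and Gpc6, those that rose were 3 and 5. The glypican Gpc1 rose from 0.132 FPKM ± 0.0573 (SD, n = 3) across c-MYC to 27.8 FPKM ± 6.92 (SD, n = 3) across c-MYC/FOXO1AAA (limma adjusted p 4.83e-08), and Gpc6 by 4.98 log2 units against NL (limma adjusted p 0.000205). Col18a1, the source of endostatin, stood at 315 FPKM ± 7.59 (SD, n = 4) across NL, 116 FPKM ± 23.6 (SD, n = 3) across c-MYC and 14.4 FPKM ± 8.21 (SD, n = 3) across c-MYC/FOXO1AAA. In c-MYC/FOXO1AAA it was below c-MYC (limma adjusted p 5.77e-05) and below NL (limma adjusted p 4.3e-07). Sdc2, a syndecan, fell by 3.91 log2 units in c-MYC against NL (limma adjusted p 2.23e-08), and Cspg4, the NG2 proteoglycan of pericytes, rose by 4.35 (limma adjusted p 4.48e-05).

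Versican's family and hyaluronan genes were mostly below the filter, with 5 of 16 genes tested. Cd44, the hyaluronan receptor, rose from 0.786 FPKM ± 0.275 (SD, n = 3) across c-MYC and 0.770 FPKM ± 0.289 (SD, n = 4) across NL to 8.50 FPKM ± 1.14 (SD, n = 3) across c-MYC/FOXO1AAA (limma adjusted p 6.15e-05 and 1.12e-05). Among the 4 genes of this list that passed the filter without those libraries, 0 rose in either comparison (0 also at an unadjusted p under 0.05 in limma). The hyaluronidase gene Hyal1 fell from 6.04 FPKM ± 0.373 (SD, n = 4) across NL to 0.694 FPKM ± 0.226 (SD, n = 3) across c-MYC (limma adjusted p 1.11e-05) and 0.593 FPKM ± 0.224 (SD, n = 3) across c-MYC/FOXO1AAA (limma adjusted p 3.72e-06). For this list 1 gene fell in c-MYC and 3 in c-MYC/FOXO1AAA against NL.

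Integrin chains of receptors for matrix proteins were called in both directions. Of 9 tested genes, 4 rose and 2 fell in c-MYC/FOXO1AAA against c-MYC. In c-MYC against NL 2 rose and 2 fell, and in c-MYC/FOXO1AAA against NL 2 rose and 1 fell. Among the 6 genes that passed the filter without the c-MYC/FOXO1AAA libraries, 1 rose against c-MYC and 0 against NL (0 also at an unadjusted p under 0.05 in limma). Without a library of c-MYC/FOXO1AAA, 0 to 2 rose against c-MYC and 0 against NL, and single libraries of each group also decided the genes that fell against NL. Itgb3, the β chain of the vitronectin receptor that also binds fibronectin and periostin, rose from 0.111 FPKM ± 0.0387 (SD, n = 3) across c-MYC to 2.76 FPKM ± 0.659 (SD, n = 3) across c-MYC/FOXO1AAA (limma adjusted p 4.28e-06). Itgb7, an integrin chain of lymphocytes, rose by 1.57 log2 units in c-MYC against NL (limma adjusted p 0.0114) and fell by 2.48 in c-MYC/FOXO1AAA against c-MYC (limma adjusted p 0.000566). Itga9 fell by 1.11 in c-MYC/FOXO1AAA against NL (limma adjusted p 0.044).

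Of the enzymes that build glycosaminoglycan chains on the proteoglycan cores, 15 were tested. In c-MYC against NL 3 rose and 2 fell, and in c-MYC/FOXO1AAA against c-MYC 4 rose and 1 fell. In c-MYC/FOXO1AAA against NL 5 rose and 2 fell. The share called is not read as a trait of this list, given the percentages of all genes. Among those called were several chondroitin sulfotransferases. Chst12 was at 0.742 FPKM ± 0.439 (SD, n = 4) across NL, 5.06 FPKM ± 0.246 (SD, n = 3) across c-MYC and 38.9 FPKM ± 6.50 (SD, n = 3) across c-MYC/FOXO1AAA, and rose in all 3 comparisons (limma adjusted p 0.000328, 0.00108 and 6.48e-07). Chst13 fell from 23.6 FPKM ± 3.17 (SD, n = 3) across c-MYC to 2.83 FPKM ± 0.929 (SD, n = 3) across c-MYC/FOXO1AAA (limma adjusted p 8.63e-06) and was below NL there too (limma adjusted p 0.000902). Chst15 fell by 1.74 log2 units in c-MYC against NL (limma adjusted p 0.000517).

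Proteases and inhibitors of matrix turnover included 10 tested genes. In c-MYC against NL 2 rose and 3 fell, in c-MYC/FOXO1AAA against c-MYC 5 rose and 1 fell, and against NL 5 rose and 2 fell. Without Mmp2 and Timp1, which passed the filter only with c-MYC/FOXO1AAA, 3 rose in c-MYC/FOXO1AAA against either group. Mmp2, gelatinase A, rose from 0.284 FPKM ± 0.0493 (SD, n = 3) across c-MYC to 9.91 FPKM ± 3.80 (SD, n = 3) across c-MYC/FOXO1AAA (limma adjusted p 1.47e-06). The metalloprotease gene Mmp19 fell from 22.0 FPKM ± 6.11 (SD, n = 3) across c-MYC to 0.746 FPKM ± 0.449 (SD, n = 3) across c-MYC/FOXO1AAA (limma adjusted p 4.22e-06), and was also below its NL level there (limma adjusted p 6.05e-07). Timp1, an inhibitor of these proteases, rose from at most 3 reads per NL library to 18.9 FPKM ± 0.299 (SD, n = 3) across c-MYC/FOXO1AAA (limma adjusted p 1.52e-07). Bmp1, the procollagen C-proteinase, fell by 2.32 log2 units in c-MYC against NL (limma adjusted p 0.000208), and Mmp12, macrophage elastase, rose by 2.74 (limma adjusted p 0.000308).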

How the data were processed

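Total RNA of 10 mouse liver or liver tumour samples was sequenced after polyA selection or removal of ribosomal RNA. The authors counted reads by Ensembl gene, mapped these to symbols and used edgeR on the counts. The aligner, the counter and the annotation are not given in the sources used here, and the submitters' processing notes name FastQC 0.11.7 and GRCm38. The deposited table holds log2 FPKM. From its values the authors had added 2 reads to every count as a prior, in proportion to library size, before the logarithm, so that a gene without reads sits at a floor set by its length. Whole reads (within 0.02 of a read) were recovered from this floor for 99.66% of 16697 entries. Of the 17069 lines, 372 had neither a symbol nor values and were left out.

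Groups and replicate numbers follow the titles in the labels. The deposited log2 values were tested with limma 3.58.1 in R 4.3.3 (treat, 2-sided, change above 1.5-fold, trend and robust, statmod 1.5.0). The fit used all 10 libraries and the 14017 genes with at least 1 FPKM in at least 3 libraries, with Benjamini-Hochberg adjustment over these genes and a threshold of 0.05. The script was tested on simulated data. A log2 difference includes the prior count and understates changes of low genes. Where a group held few reads, ratios of pooled reads per effective library size are given with exact 95% intervals, or a bound against 3 reads per library where it held none. Intervals cover counting error only.

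The genes, the lists and the tests were chosen with earlier results of these data known. The named genes are all 10 members, the 2 genes with the highest Pearson's r to each over the 10 libraries (1 of those for Prg4 is not reported here), and in each list and comparison the called gene with the largest change in each direction, provided that its mean reached 1 FPKM in 1 of the groups. Some of the listed markers were also named singly after their values were seen, among them Lrat, Hand2, Reln, Des, Acta2, Col2a1, Cdh5, Clec4g and Stab2. The GC and TATA boxes were added to the motifs after the promoters had been read. Positions are from GENCODE M21 for GRCm38. Alternatives were pseudocounts of 0.1 and 1, no filter or a mean of at least 5 FPKM, 3 rescalings, no fold threshold or 2-fold, trend and robust estimation off, the compared groups alone, a replicate block and each library left out.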

Additional observations from a re-analysis of the deposited data

Results flagged for a closer look

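Among the 4 NL libraries, 2 of 39 genes looked at had a library that stood apart from the others by more than Dixon's test allows, and chance alone gives about 5% of groups. Aspn was at 0.0508 FPKM in NL 4 against 0.0897 to 0.0964 FPKM in the others, which is a difference of 0 against 1 read. Mmp19 was at 18.4 FPKM in NL 3 against 24.5 to 25.4 FPKM in the others. None of the 10 members was flagged. Groups of 3 libraries were not looked at in this way.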

How the results depend on the processing

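Among the members, Dcn, Lum, Bgn and Fn1 in c-MYC versus NL, Dcn and Lum between the tumour groups, and Fn1 in c-MYC/FOXO1AAA versus NL kept direction and call under every alternative in which they could be tested. Fbn1 fell below the filter whenever a c-MYC/FOXO1AAA library was left out, so its calls for that group, which the counts include, say nothing about stability. Of the 8 members other than Prg4 and Fbn2, of which 7 passed the filter, the number called higher in c-MYC versus NL was 0, but 1 without a filter and 2 (Fbn1 and Sparc) at the same FPKM total, and 0 to 1 with a library left out. Between the tumour groups the number called higher went from 4 to 2 at a mean of at least 5 FPKM and was 2 to 4 with a library left out, and the number called lower went from 0 to 1 without a fold threshold. In c-MYC/FOXO1AAA versus NL the number called higher went from 2 to 1 at a mean of at least 5 FPKM and with the 2-fold threshold, to 4 at the same FPKM total and without a fold threshold, and was 1 to 2 with a library left out. Dcn in that comparison had an adjusted p of 0.116 with the 2-fold threshold. For Bgn in c-MYC/FOXO1AAA versus c-MYC the adjusted p was 0.054 at the same median, 0.236 with the 2-fold threshold and 0.0682 with the compared groups alone. Signs turned for Postn in c-MYC versus NL without c-MYC replicate 3 (-0.15, the range over libraries left out being -0.15 to 0.87) and for Bgn in c-MYC/FOXO1AAA versus NL at the same FPKM total (0.37). They turned for Lum in the latter comparison at the same median (-0.035), with quantile normalization (-0.17) and without c-MYC/FOXO1AAA replicate 2 (-0.11) or 3 (-0.18), the range over libraries left out being -0.18 to 0.59. The causes were not tested. The fitted difference of Fbn2 from NL was 11.8, and 8.52 or 5.37 with a pseudocount of 0.1 or 1, and that of Prg4 between the tumour groups 10.1, and 9.19 or 6.81, so that low levels set the size of these values.

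For the 8 lists together, the genes called higher in c-MYC versus NL went from 17 to 11 with a pseudocount of 1, 9 at a mean of at least 5 FPKM, 10 with the 2-fold threshold and 27 at the same FPKM total, and those called lower from 34 to 21 with a pseudocount of 1 and 15 at a mean of at least 5 FPKM. In c-MYC/FOXO1AAA versus c-MYC those called higher went from 55 to 16 at a mean of at least 5 FPKM, where fewer genes were tested, and were 34 to 56 with a library left out, the lowest without c-MYC/FOXO1AAA replicate 2. Those called lower went from 7 to 12 without a fold threshold. In c-MYC/FOXO1AAA versus NL those called higher went from 50 to 15 at a mean of at least 5 FPKM and were 32 to 50 with a library left out, and those called lower went from 20 to 10 at the same FPKM total. Leaving out a c-MYC/FOXO1AAA library also lets fewer genes pass the filter. For single lists, 920 of 1056 counts stayed within 1.5 times. Over all genes, those called higher and lower in c-MYC/FOXO1AAA versus c-MYC were 2229 and 1787, against 3984 and 3704 without a fold threshold. The higher ones were 989 at a mean of at least 5 FPKM and 1367 to 2245 with a library left out, and the lower ones 1102 with the 2-fold threshold. In c-MYC versus NL the 3435 called higher were 5487 without a fold threshold and 2192 with the 2-fold threshold, and in c-MYC/FOXO1AAA versus NL the 4371 were 2500 at a mean of at least 5 FPKM.

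Replicate numbers did not pair the samples, as the 9 same-numbered pairs had correlations of their deviations from -0.040 to 0.027. None of the libraries was closest to its own number, and NL 4, without a same-numbered library, could not be. With the replicate block, the members called higher in c-MYC/FOXO1AAA versus c-MYC were 3 instead of 4, since Bgn had an adjusted p of 0.0789. The other member counts did not change, and the list genes called higher there were 52. With few reads behind Prg4, Lum, Fbn2 and Vcan in c-MYC, depth limits how exactly their lowest levels are known.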
